A study of Saccharomyces cerevisiae with 8 samples.

Results

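The protein-coding genes of the small subunit of the cytosolic yeast ribosome were taken as the 57 of 6016 rows of the table whose symbol is RPS, a number and an optional A or B, together with ASC1. By the descriptions of their rows 56 of the 57 are small subunit proteins, and ASC1 is the ribosome-bound scaffold protein. All 57 have the same span in the RefSeq annotation of build R64. They encode 33 proteins, 24 of them from a pair of gene copies named A and B and 9 from a single gene, and they lie on 14 chromosomes. The cells were BY4741, a haploid laboratory strain of Saccharomyces cerevisiae, grown in synthetic dextrose medium without leucine and uracil. All of them carried an mCherry reporter with a premature UAG stop at codon 14 and a cassette for guide RNAs, which direct pseudouridylation, the isomerization of a uridine, to a selected RNA position. In targeted cells PTC(K14ΨAG)-gRNA addressed that stop codon and tRNA_Lys(CUΨ36)-gRNA addressed position 36 of a lysine tRNA, while the control cells carried control gRNAs. mRNA (RNA-seq) and ribosome footprints (RIBO-seq) were sequenced for either guide set, which gave 8 libraries in 4 groups of 2. The labels do not say whether the replicates were separate transformants or cultures, so p-values cover only the spread of these libraries, possibly a technical one. The strain lacks MET17, and at most 1 read per library was counted for it.

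The small subunit binds mRNA and the anticodon ends of tRNAs, and its decoding centre checks each codon-anticodon pair. Its proteins are commonly sorted into those of the head and those of the body and platform. In budding yeast most of the proteins come from paired gene copies left by an ancient genome duplication, and the proteins of a pair are identical or nearly so. Ribosomal protein genes are transcribed together under Rap1, Fhl1, Ifh1 and Sfp1, and they hold a large part of the introns of this yeast. Footprints count the ribosomes on an mRNA, so footprints over mRNA measure how densely ribosomes sit on it.

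Levels are given as RPKM, reads per kilobase of coding sequence and library size, scaled between the libraries of an assay by TMM (a trimmed mean that sets the bulk of genes level). Each library held between 805 and 44174 RNA reads or between 1966 and 42509 footprint reads of every member, and all 57 passed the low-count filter of every test. Total counts per library ran from 21073013 to 61908589 in RNA-seq and from 8080039 to 15253540 in RIBO-seq. Transposon rows took 69.8 to 72.9% of the RNA counts and 20.6 to 23.2% of the footprint counts, and shares are therefore given of the remaining counts. Of RNA counts the 57 genes held 6.23 and 6.31% in the control libraries and 6.35 and 5.68% in the targeted libraries. Their share of footprint counts was 8.59 and 8.71% with the control guides and 8.88 and 8.08% with the targeted ones. Targeted replicate 2 was the lowest library of both assays, and targeted replicate 1 the highest. The targeted minus control difference was -0.257 percentage points in RNA and -0.173 in footprints, and an exact two-sided permutation test gave p = 1 for each, where 0.3333 is the smallest p that 2 against 2 libraries allow. The 82 genes of the large subunit followed the same order, with 8.99, 9.09, 9.18 and 8.18% of the RNA counts.

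**Figure D1:**
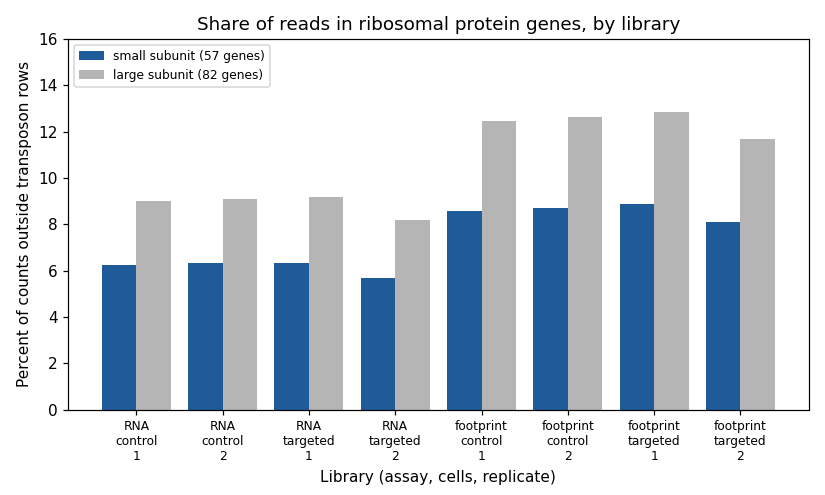
Percent of counts outside transposon rows (vertical axis) in the 57 small subunit and 82 large subunit genes, 1 bar per library. Small subunit genes took 5.68 to 6.35% of RNA counts and 8.08 to 8.88% of footprint counts, and targeted replicate 2 had the lowest bar of each assay.

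The members were among the most abundant mRNAs: 51 of 57 stood in the top 200 rows by RNA RPKM and 53 in the top 200 by footprint RPKM. Mean RNA levels over the 4 RNA libraries had a median of 625 RPKM and spanned 12.2-fold, and mean footprint levels had a median of 2596 RPKM and spanned 7.19-fold. RPS31, which makes a head protein as a fusion with ubiquitin, had the highest mRNA level, with 1273 and 1299 RPKM in control and 1326 and 1158 in targeted cells. RPS26A, whose protein contacts mRNA near the exit of its channel, was among the 4 highest at a mean of 1022 RPKM, with 1073 and 1033 in control and 1052 and 930.1 in targeted RNA. In both genes targeted replicate 2 was the lowest of the 4 RNA libraries. The 4 lowest genes were the lesser copies of their pairs: RPS22B at a mean of 104 RPKM, RPS9A at 119, RPS14B at 203 and RPS27A at 223. RPS22B had 97.9 and 110.2 RPKM in control and 105 and 101 in targeted RNA, and its libraries overlapped between the guides.

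**Figure D2:**
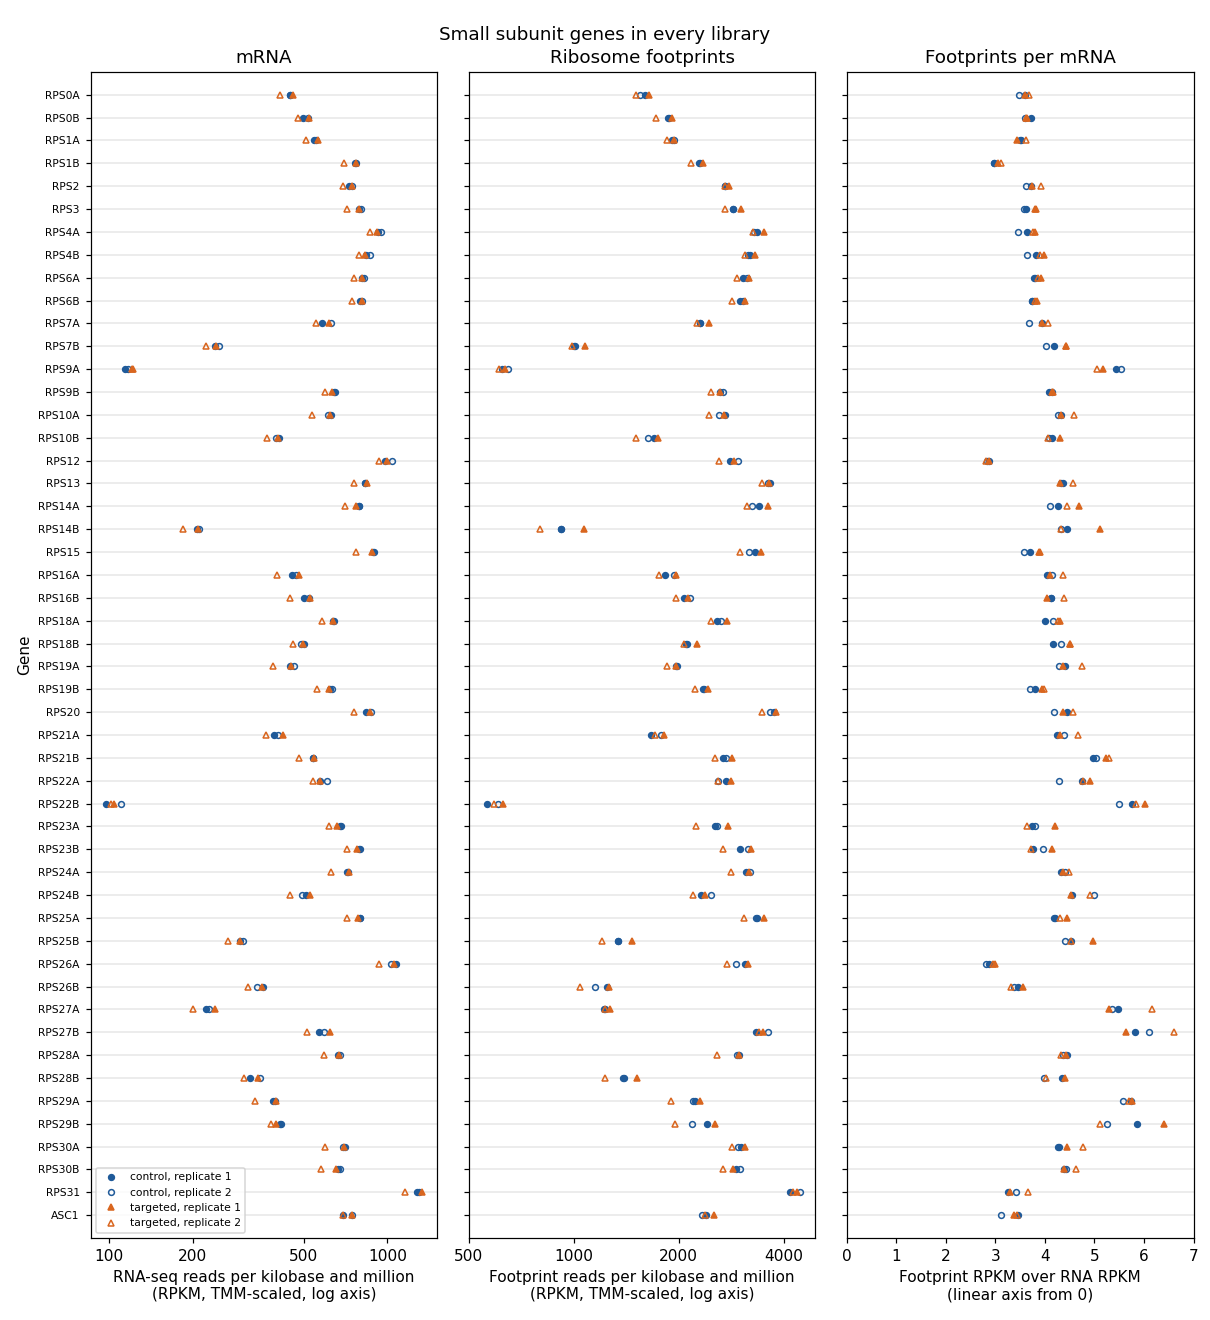
RNA RPKM and footprint RPKM (log axes) and footprints per mRNA (linear axis from 0) of 50 of the 57 genes, 1 point per library. RNA levels ran from RPS22B near 104 to RPS31 near 1264 RPKM, and in most rows the open triangle, targeted replicate 2, is the lowest of the RNA points.

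The 9 single-gene proteins have no second copy to share reads with, apart from the ubiquitin part of RPS31, which UBI4, RPL40A and RPL40B also encode. Their RNA levels ranged from 718 RPKM in ASC1 to 1264 in RPS31 and their footprint levels from 2404 to 4298. RPS2, a protein of the mRNA entry channel whose mutants suppress nonsense mutations, had 730.0 and 747 RNA RPKM in control and 744 and 689.8 in targeted cells, with 2714 and 2711 (control) and 2784 and 2706 (targeted) footprint RPKM. RPS3, at the mRNA entry on the head, had 788 and 801 RNA RPKM in control and 792 and 714 in targeted cells, and 2859.8 and 2865 (control) and 3019 and 2709 (targeted) footprint RPKM. Control and targeted libraries overlapped for both genes in both assays. RPS12, in the beak of the head, had 976 and 1040.3 (control) and 998 and 929 (targeted) RNA RPKM and 2811 and 2945 (control) and 2871 and 2609.5 (targeted) footprint RPKM. The RNA of RPS12 was above that of RPS2 in every library, while its footprints overlapped those of RPS2.

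RPS13, a body protein that bridges to the large subunit, had 834 and 833 RNA RPKM in control and 845 and 759 in targeted cells, and 3642 and 3602 (control) and 3633 and 3465 (targeted) footprint RPKM. RPS15, a head protein close to the decoding centre, had 892 and 887 (control) and 882 and 770.1 (targeted) RNA RPKM, with 3307 and 3169 (control) and 3435 and 2984 (targeted) footprint RPKM. In RNA both targeted libraries of RPS15 were below both control libraries, and in footprints targeted replicate 1 was the highest and replicate 2 the lowest. RPS20, a head protein that is ubiquitinated when ribosomes collide, had 838 and 874 RNA RPKM in control and 868 and 759 in targeted cells, with 3736 and 3653 (control) and 3795 and 3463 (targeted) footprint RPKM. ASC1, the homologue of mammalian RACK1, sits on the head, takes part in the response to stalled ribosomes and holds a small nucleolar RNA in its intron. ASC1 had 694 and 744 RNA RPKM in control and 744 and 691 in targeted cells, and its footprints were 2395 and 2323 (control) and 2515 and 2381 (targeted) RPKM. RPS31 footprints were 4157 and 4440.2 RPKM in control and 4359.8 and 4235 in targeted cells. The groups overlapped in RPS20, ASC1 and RPS31 in both assays.

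Within the pairs the copies ranged from equal to more than 5-fold apart, and 22 of 24 kept the same copy ahead in all 8 libraries. Copy A had the higher mRNA level in all 4 RNA libraries in 15 pairs and copy B in 8. The mean levels differed by over 2-fold in 7 pairs and by under 1.2-fold in 9. RPS22, a body protein, was the most unequal pair, with A over B at 5.86 and 5.51 in control RNA, 5.47 and 5.35 in targeted RNA, 4.83 and 4.28 in control footprints and 4.47 and 4.37 in targeted footprints. RPS22B (chromosome 12, 856442 to 857317) has 483 intron bases within its coding span and RPS22A (chromosome 10, 74910 to 75302) has none, the only pair in which the copies differed in this. RPS9, a body protein of the mRNA entry channel whose mutants suppress nonsense mutations, leaned the other way, with RPS9B 5.29-fold above RPS9A in mean RNA level. A over B for RPS9 was 0.178 and 0.182 in control RNA and 0.194 and 0.203 in targeted RNA, and 0.238 and 0.243 (control) and 0.243 and 0.247 (targeted) in footprints. RPS9A (chromosome 16, 404950 to 406044) and RPS9B (chromosome 2, 604508 to 605508) both have an intron. The footprint balance was closer to even than the RNA balance in every comparison of the same lysate for these pairs.

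RPS14, a platform protein known to bind the transcript of RPS14B and limit its expression, had A over B at 3.84 and 3.73 in control and 3.68 and 3.81 in targeted RNA, and 3.68 and 3.53 (control) and 3.37 and 3.92 (targeted) in footprints. RPS26 had 2.998 and 3.03 (control) and 2.97 and 2.95 (targeted) in RNA and 2.49 and 2.54 (control) and 2.51 and 2.64 (targeted) in footprints. For RPS14 the footprint values of targeted cells lay on either side of all others, and for RPS26 every footprint value was below every RNA value. RPS25 (A 2.66-fold higher), RPS27 (B 2.57-fold higher) and RPS7 (A 2.49-fold higher) were the other pairs over 2-fold apart in mean RNA. At the other end, RPS6, a body protein phosphorylated in response to nutrients, had A over B between 1.002 and 1.02 in the 4 RNA libraries. RPS30, a small protein at the mRNA entry, ranged from 1.02 to 1.07. RPS29 and RPS30 were the pairs in which the order of the copies was not the same in all 8 libraries.

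**Figure D3:**
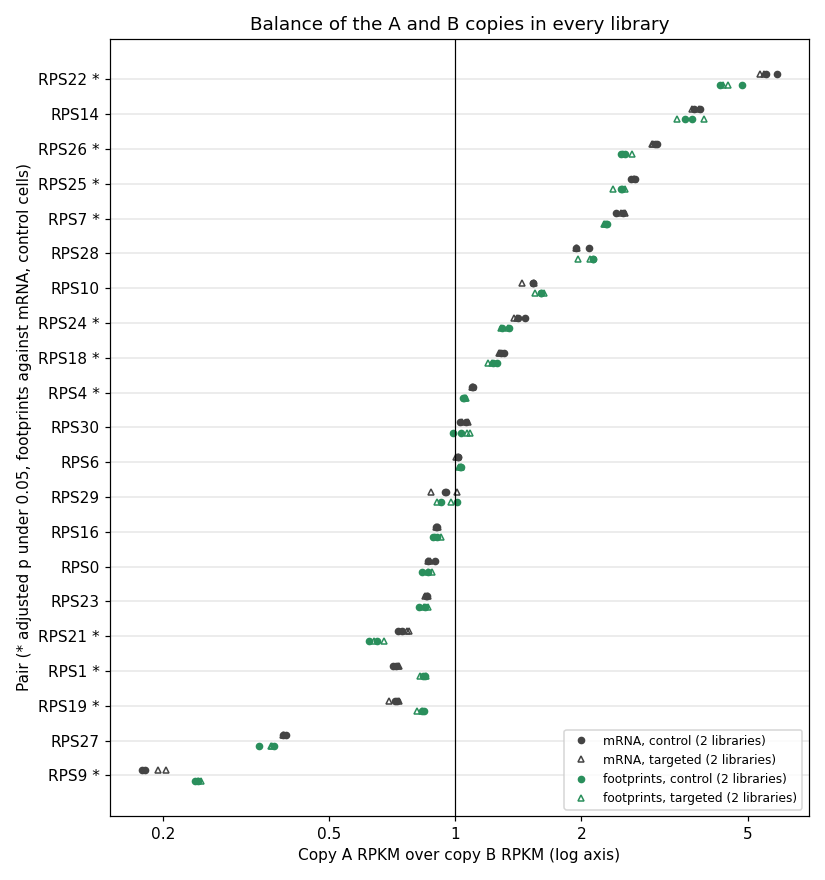
Copy A over copy B (RPKM, log axis) for 21 of the 24 pairs in each library, sorted by the mean RNA value, with mRNA in grey and footprints in green. Pairs spread from RPS9 near 0.2 to RPS22 near 5, the 8 points of a pair stay close together, and stars mark the 11 of these pairs whose footprint balance differed from the RNA balance in control cells.

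The counting of reads that match both copies is not given in the sources used here. Between libraries the split of reads between the copies varied by less than counting error in 4 pairs, with a chi-square per degree of freedom below 1 over both assays, among them RPS6 (0.386) and RPS4 (0.414). In the other 20 pairs it was from 1.17 to 9.09, the highest in RPS14. Whether reads were counted in both copies, and its part in the balances, was not tested. Summing the copies of a protein removes the split but not a read counted in both. Summed footprints had a median of 3224 RPKM over the 9 single-gene proteins, 5541 over the 9 pairs under 1.2-fold apart, 4361 over the 8 pairs in between and 4153 over the 7 pairs over 2-fold apart. The higher copy alone had medians of 2977, 2658 and 2980 in these pair classes. By protein the summed footprint level was lowest in ASC1 (2404 RPKM). ASC1 was followed by 4 other single-gene proteins, RPS2 (2728), RPS12 (2809), RPS3 (2863) and RPS15 (3224). RPS4 (6534) and RPS6 (6066) were among the 3 highest, which were also the 3 pairs with the lowest chi-square.

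Footprints over mRNA were high in every member. The ratio of footprint RPKM to RNA RPKM in the same lysate had a median over the 57 genes of 4.11 in control and 4.21 in targeted cells, against 2.03 and 2.05 over the 5089 rows outside transposons with a mean of at least 100 RNA reads. In control cells edgeR's quasi-likelihood test, with Benjamini-Hochberg adjustment over 5660 genes, called 57 of 57 members higher in footprints than in RNA relative to the bulk of genes, at an adjusted p under 0.05, the threshold of every test here. Of all genes tested 36.5% were called higher and 38.7% lower. The members' log2 differences had a median of 1.03 and ran from 0.51 to 1.57, and the median over all genes was -0.02. In targeted cells 57 of 57 were again called higher, against 34.8% of all genes higher and 36.3% lower, with a median log2 of 1.07 and a range of 0.50 to 1.60. Only the position relative to other genes is measured, since the assays were sequenced separately. With library size as the only scaling the control median was 2.005 and that of all genes 0.95. In counts outside transposons the share of the 57 genes was 6.23 and 6.31% in control RNA against 8.59 and 8.71% in control footprints, a smaller step than the median log2 difference. The 82 large subunit genes gave a median log2 of 0.95 in control cells, with 82 of 82 called higher.

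Among the 4 highest ratios, those of RPS27B, RPS29A and RPS29B were found in short coding sequences of 249, 171 and 171 bases, and RPS22B has 393. RPS30A and RPS30B, with 192 bases each, had lower mean control ratios of 4.27 and 4.40. RPS27B, for a zinc-finger protein, had 5.83 and 6.11 footprints per mRNA in control and 5.63 and 6.61 in targeted cells, a log2 difference of 1.57 ± 0.05 (SE) from the bulk of genes in control cells, with an edgeR adjusted p of 4.29e-08. RPS29A and RPS29B, the copies for a zinc-binding head protein and the shortest members, had 5.73 and 5.58 (RPS29A) and 5.86 and 5.25 (RPS29B) in control cells. In targeted cells RPS29A had 5.75 and 5.69 and RPS29B 6.39 and 5.11, so the RPS29B replicates differed more than the guides did. RPS22B had 5.76 and 5.51 in control and 6.01 and 5.84 in targeted cells. RPS9A, with a longer coding sequence of 594 bases, was above the members nearest to it in length at 5.44 and 5.54 in control and 5.18 and 5.06 in targeted cells, where RPS9B had 4.08 and 4.14 (control) and 4.15 and 4.16 (targeted). RPS26A was lowest in control cells at 2.88 and 2.82, with 3.001 and 2.96 in targeted cells. RPS12 had 2.88 and 2.83 (control) and 2.88 and 2.81 (targeted), and RPS1B, a copy for a platform protein, 2.97 and 2.98 (control) and 3.06 and 3.11 (targeted). These 3 lay below the 4 highest members in every library, and RPS26A still had a log2 difference of 0.51 ± 0.05 with an edgeR adjusted p of 3.00e-05.

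Across the 57 members the control ratio was lower in longer coding sequences, with Spearman's rho of -0.672, and at higher RNA levels, with rho of -0.589. Across the other 5032 rows with a mean of at least 100 RNA reads rho was -0.598 for coding length and 0.525 for RNA level. These are descriptions across genes of the same libraries, and genes are not independent replicates. RNA reads are the denominator of the ratio, while coding length as a divisor enters both of its terms and cancels. Other effects of length on the reads of either assay were not tested. The sign for RNA level thus differed between the members and the other genes, a difference that was not tested. Members with an intron (37) had a median ratio of 4.12 and a median RNA level of 599 RPKM, and members without (20) had 3.62 and 762 RPKM. Their median coding lengths were 435 and 411 bases. Head proteins (23 genes) and body and platform proteins (34 genes) had median control ratios of 4.16 and 3.84, with median coding lengths of 429 and 463.5 bases. Their calls between the guides were 0 of 23 and 0 of 34 in RNA, in footprints and in the ratio, and their median RNA changes were -0.07 and -0.06 on the log2 scale.

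**Figure D4:**
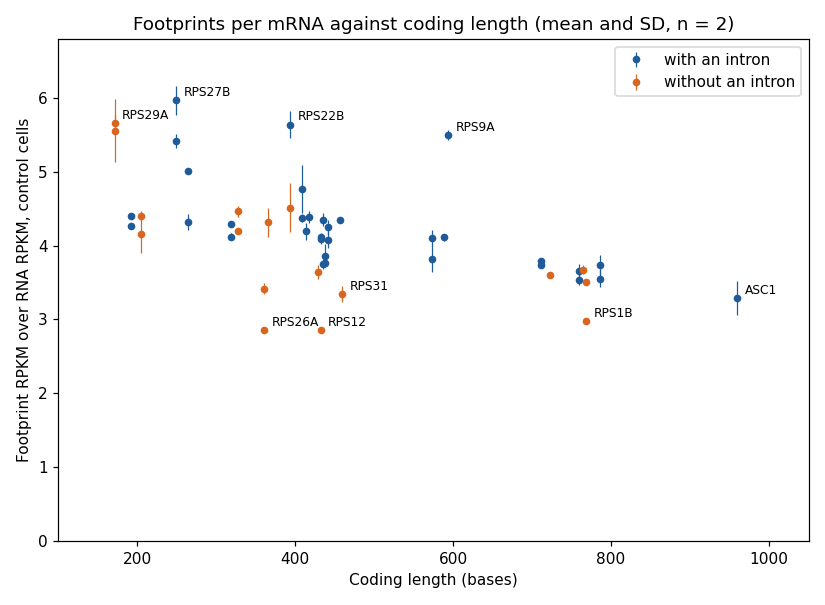
Footprints per mRNA in control cells (vertical axis, mean and SD of 2 lysates) against coding length in bases for 50 of the 57 genes, coloured by whether the coding span holds an intron. The short genes RPS27B and RPS29A lie highest at 5.97 and 5.66, RPS26A and RPS12 lie lowest near 2.9, and RPS9A stands above the members nearest to it in length.

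Footprints and RNA did not always give the same balance between the copies of a pair. How reads that match both copies were counted is not given, and the part of this counting in these differences was not tested. In limma on log2 A over B, fitted across the 87 A and B pairs of the table with at least 50 counts on average, footprints and RNA of control cells differed in balance in 12 of the 24 pairs, with A higher in 3 and B higher in 9. Over all 87 pairs 41.4% were called with A higher and 27.6% with B higher, a background that includes transposon rows with systematic A and B names. The share of the members called was thus not above that of all pairs. The largest was RPS9, where A over B was 0.178 and 0.182 in RNA and 0.238 and 0.243 in footprints, so that RPS9A carried 1.34-fold more footprints per mRNA than RPS9B (log2 0.42 ± 0.03, adjusted p 1.58e-06). RPS1 had A over B at 0.708 and 0.72 in RNA and 0.836 and 0.844 in footprints (log2 0.23 ± 0.01, adjusted p 2.49e-07). RPS22B carried more footprints per mRNA than RPS22A (log2 -0.32 ± 0.07), RPS26B more than RPS26A (-0.26 ± 0.03) and RPS19A more than RPS19B (0.22 ± 0.02). Of the other calls, RPS21, RPS24, RPS7, RPS25, RPS4 and RPS18 all had B higher, by -0.21 to -0.06 on the log2 scale of A over B. RPS27, the closest to passing of the other 12, had a log2 difference of -0.14 with a 95% interval of -0.27 to -0.01, so the copies of pairs that did not pass are not shown to be alike.

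In 11 of the 12 called pairs the copy with less mRNA had more footprints per mRNA, the exception being RPS21, and over all 24 pairs this was so in 15. RNA is the denominator of the ratio, so this order is not independent of the RNA measurement, whose part was not tested. In targeted cells, from other libraries, 12 pairs were again called, 11 of them among the 12 of control cells and with the same copy higher in all 11. Over all 87 pairs 67.8% were called there, a larger share than in the members. RPS25 was called in control cells and not in targeted cells. The difference between the guides was tested in all 8 libraries, called 0 of 24 pairs with 0 at an unadjusted p under 0.05, and was closest in RPS9 (log2 -0.12 ± 0.06, limma p 0.0552, adjusted p 0.299). Without control RNA replicate 2 the control test called 7 pairs, where 57.5% of the 87 pairs were called, and with the lysate as a block it called 17, against 80.5% of all pairs. The balances of RNA and of footprints correlated across the 24 pairs with Pearson's r of 0.991 on log2 A over B, a description over pairs measured in the same lysates, and 15 of 24 pairs were closer to even in footprints than in RNA.

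Between the guides no small subunit mRNA passed the test. edgeR's quasi-likelihood test called 0 of 57 members in RNA, where 0.368% of 5712 genes were called in either direction. No member had an unadjusted p under 0.05, and DESeq2 and limma-voom called 0 members as well. The log2 changes ran from -0.12 to 0.07 with SE of 0.06 to 0.09, and all 57 intervals of 95% held 0 and lay between -0.30 and 0.20. The values leaned together, and 56 of 57 were below 0, with a median of -0.07 against -0.00 over all genes. This depended on targeted replicate 2, without which 23 of 57 were below 0 and the median was 0.01. Without targeted replicate 1 the median was -0.14. In large subunit genes 80 of 82 were below 0, also with a median of -0.07. In bulk lysates a change in some of the cells and a smaller change in all of them cannot be told apart.

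The 5 members with the smallest p in RNA were RPS30B, RPS29B, RPS14A, RPS30A and RPS19A. RPS30B had 664 and 677 RPKM in control and 652 and 577 in targeted RNA, a log2 change of -0.12 ± 0.07 with an edgeR adjusted p of 0.973. RPS30A had 704 and 694 (control) and 697 and 597 (targeted), RPS29B had 412 and 416 (control) and 396 and 382 (targeted), and RPS14A had 793 and 788 (control) and 769 and 705 (targeted). RPS19A, a copy for a head protein, had 446 and 460.5 RPKM in control and 449.9 and 389 in targeted RNA. Both targeted libraries lay below both control libraries in RPS30B, RPS29B and RPS14A, and in RPS19A and RPS30A targeted replicate 1 lay between the control values. Over the members this held in 14 genes, and in 16.6% of all rows with at least 100 RNA reads on average. RPS9A alone lay above, with 115 and 117 RPKM in control and 123 and 121 in targeted RNA (log2 0.07 ± 0.06, edgeR adjusted p 0.973), against 16.03% of all rows.

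Footprints gave 0 of 57 calls between the guides, where 0.586% of 5461 genes were called, with no member at an unadjusted p under 0.05 and 0 calls by DESeq2 or limma-voom. The log2 changes ran from -0.09 to 0.06 with a median of -0.02, and 39 were below 0. Over all genes 50.6% were below 0 with a median of -0.001, and in large subunit genes 61 of 82 with a median of -0.02. All 57 intervals of the members held 0 and lay between -0.27 and 0.27. RPS30B had 2912 and 2993 footprint RPKM in control and 2864 and 2668 in targeted cells (log2 -0.09 ± 0.07, p 0.204, edgeR adjusted p 0.999). RPS28A, a copy for a head protein, had 2969 and 2942 (control) and 2973 and 2570.1 (targeted), and RPS24A, a copy for a body protein, 3108 and 3195 (control) and 3172 and 2819 (targeted). RPS29A had 2224 and 2202 in control and 2294 and 1904 in targeted footprints, and RPS29B 2414 and 2187 (control) and 2535 and 1951 (targeted). In RPS29A and RPS29B targeted replicate 1 was the highest library and replicate 2 the lowest. Without targeted replicate 1 both RPS29 copies were called lower (log2 -0.22 and -0.24, edgeR adjusted p 0.0291 and 0.0102) with 54 of 57 members below 0. Over all genes 2.9% were called in that fit, a share near that of the members, and its 1 targeted library was assumed to vary like the control libraries. Without targeted replicate 2 the members' median was 0.05 with 6 below 0. The calls thus rest on which targeted library is used.

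Footprints per mRNA gave 0 of 57 calls for the change between the guides, and 0% of 5665 genes were called, or 0.106% with the lysate as a block, none of them a member. No member had an unadjusted p under 0.05 in edgeR, over all genes 51 higher and 54 lower did, and DESeq2 called 0 members. The members' median was 0.05 on the log2 scale against 0.01 over all genes, 51 of 57 were above 0, and all 57 intervals held 0. They reached from -0.29 to 0.47, so a change of the ratio is bounded less tightly than one of RNA or footprints. RPS7B, a copy for a body protein, had 4.18 and 4.03 footprints per mRNA in control and 4.43 and 4.43 in targeted cells (log2 0.12 ± 0.10, p 0.256, edgeR adjusted p 1.0). RPS14A had 4.27 and 4.11 (control) and 4.69 and 4.46 (targeted), RPS22A 4.75 and 4.28 (control) and 4.92 and 4.77 (targeted), and RPS4A, a copy for a body protein, 3.63 and 3.47 (control) and 3.81 and 3.77 (targeted). RPS9A had a value of the other sign, with 5.44 and 5.54 in control and 5.18 and 5.06 in targeted cells (log2 -0.10 ± 0.08, edgeR adjusted p 1.0). In these 5 genes both targeted values lay on 1 side of both control values, yet none of the changes passed. Over the members both targeted values lay above in 25 genes and below in 1, and over all rows with at least 100 RNA reads on average in 19.04% and 14.6%. The members share these libraries, so their count is a description.

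**Figure D5:**
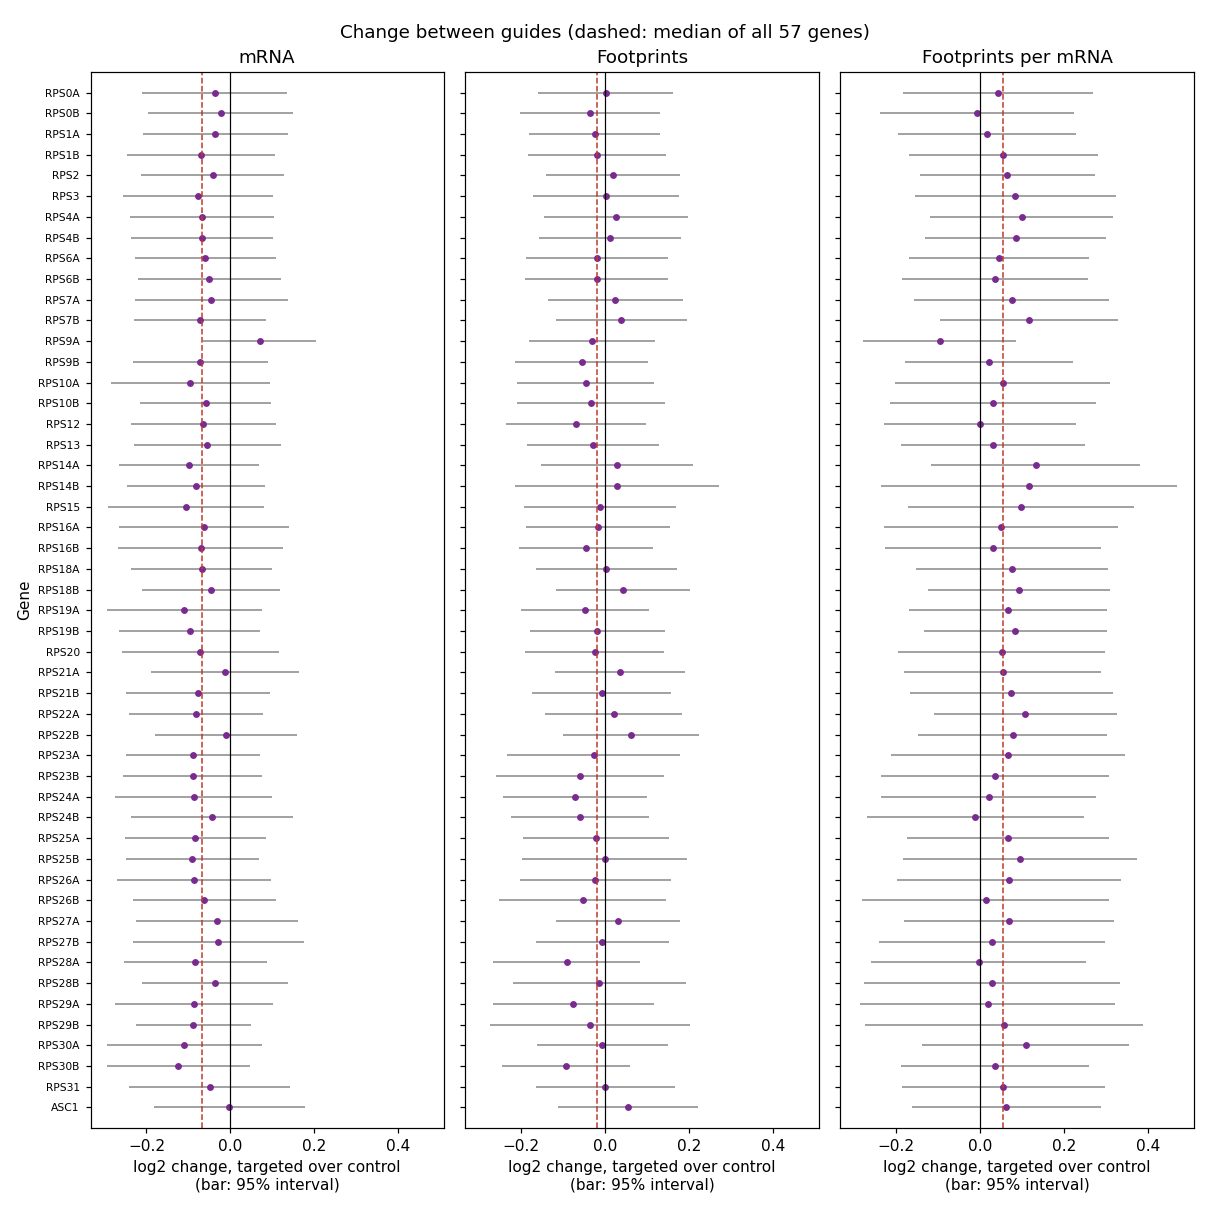
Log2 change of mRNA, footprints and footprints per mRNA, targeted over control, for 50 of the 57 genes, with points for the estimate, bars for the 95% interval and a dashed line at the median of all 57. Every bar crosses 0, and the medians lie at -0.07, -0.02 and 0.05.

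The proteins known for decoding accuracy, RPS2, RPS9A, RPS9B, RPS23A and RPS23B, showed 0 of 5 calls in each of the 3 comparisons, with median log2 changes of -0.07 in RNA, -0.03 in footprints and 0.03 in the ratio. RPS23A and RPS23B, the copies for a protein of the decoding centre, had 679.7 and 677 (A) and 799 and 792 (B) RNA RPKM in the control libraries, and 657 and 617 (A) and 778 and 717 (B) in the targeted ones. Their footprints were 2537 and 2577 (A) and 2998 and 3146 (B) RPKM in control and 2770.0 and 2244 (A) and 3223 and 2670.5 (B) in targeted cells. Targeted replicate 1 was the highest and replicate 2 the lowest footprint library of each copy.

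The balance of the copies between the guides also passed in no pair. In RNA 0 of 24 pairs were called and 0% of 87 pairs in all, with 1 pair at an unadjusted p under 0.05. That pair was RPS9, whose A over B was 0.178 and 0.182 in control and 0.194 and 0.203 in targeted RNA, with no overlap, a log2 change of 0.14 ± 0.03 (95% interval 0.07 to 0.21), limma p 0.000878 and adjusted p 0.0600. Without RNA_targeted replicate 1 or 2 it was called (0.17 and 0.11, adjusted p 2.77e-05 and 0.0467), and without RNA_control replicate 1 or 2 it was not (0.13 and 0.16, adjusted p 0.268 and 0.0883). Each of these fits has 1 library in a group, whose spread is taken from the other group and the other pairs, so a smaller p there is not stronger evidence than the p of all 4 libraries. Without targeted replicate 1, as without targeted replicate 2, 2.3% of the 87 pairs were called, RPS9 and 1 pair outside the members. RPS9 was also called with a mean of at least 500 counts, where 2.41% of pairs were, and among ribosomal protein pairs only, where it made up the 1.69% called. RPS21 (log2 0.06 ± 0.03, adjusted p 0.802) and RPS22 (-0.07 ± 0.04, adjusted p 0.802) came next. RPS21 A over B was 0.729 and 0.745 in control and 0.776 and 0.764 in targeted RNA, and its groups did not overlap. In footprints 0 of 24 pairs and 0% of 86 pairs were called, with 0 at an unadjusted p under 0.05. RPS30 had the smallest p, with A over B at 1.03 and 0.989 in control and 1.08 and 1.07 in targeted footprints (log2 0.09 ± 0.05, limma p 0.0999, adjusted p 0.421). RPS18, a head protein, had 1.23 and 1.26 (control) and 1.22 and 1.198 (targeted), and RPS0, a body protein, had 0.862 and 0.83 (control) and 0.859 and 0.877 (targeted). The footprint balance of RPS9 differed by 0.02 (95% interval -0.05 to 0.10). Over the 24 small subunit pairs the change of A over B lay between 0.952-fold and 1.10-fold in RNA and between 0.951-fold and 1.06-fold in footprints.

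Genes that act on the small subunit proteins and their assembly gave 0 calls between the guides in RNA, footprints and the ratio, in each of 3 lists. The 14 regulators of ribosomal protein genes had median log2 changes of 0.05 in RNA and, over the 13 tested, 0.03 in footprints. The 19 late assembly factors had -0.03 and -0.04, and the list of 10 chaperones had -0.06 and -0.04. That list was not limited to chaperones of small subunit proteins. It also held EGD1, EGD2 and ZUO1, which act on newly made proteins in general. At an unadjusted p under 0.05, CKA2, a catalytic subunit of casein kinase II, was lower in RNA (-0.16, p 0.0451), SFP1, an activator of ribosomal protein genes, higher in footprints (0.25, p 0.0155) and TSR2, the chaperone that hands over the RPS26 protein, lower in footprints (-0.25, p 0.0469). In the ratio SFP1 (0.27, p 0.0144) and CKA2 (0.22, p 0.0384) were above 0. No other member of the 3 lists had an unadjusted p under 0.05. In control cells the regulators leaned to fewer footprints per mRNA than the bulk of genes, with 4 called higher and 8 lower (median log2 -0.35), while of 19 late assembly factors 11 were called higher and 1 lower, and 10 of 10 chaperones were called higher. Of all genes 36.5% were called higher and 38.7% lower.

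Genes of different small subunit proteins lie within 5000 bases of each other in 3 places. On chromosome 10 RPS14B (73787 to 74611, plus strand) and RPS22A (74910 to 75302, minus strand) converge with 298 bases between their coding spans. RPS14B had a mean of 203 RNA RPKM beside 574 for RPS22A. Whether reads were counted by strand is not given in the sources used here.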

How the data were processed

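mRNA and ribosome footprints of 8 yeast libraries (2 per group) were read from 1 table with a row per gene and columns per library. RNase I digestion of lysates, isolation of monosomes by size exclusion and selection of 25 to 33 nt footprints are given per the labels' protocols, and RNA-seq used rRNA-depleted RNA of the same lysate, fragmented to similar sizes. Reads were trimmed with cutadapt and aligned with STAR to build R64, per the submitters' processing notes. The counter, its strand setting and the treatment of reads with several matches were not given in the sources used here. Per the file headers the deposited counts are reads of each gene, and they were checked to be whole numbers. RPKM values, as deposited, are scaled by coding length and library total. The deposited ratio, footprint over RNA RPKM, was checked and equals the quotient with 0.01 added to each RPKM within 1 percent in 99.7% of values. RPKM and ratios printed here were computed from the counts, the coding length and TMM library sizes, and lay between 0.997 and 1.05 times the deposited ratio in the members.

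The counts entered edgeR 4.0.16 under R 4.3.3 (quasi-likelihood, TMM, filterByExpr, two-sided, Benjamini-Hochberg adjustment over all genes tested, threshold 0.05): RNA and footprints between guides in 4 libraries each, footprints against RNA within the 4 libraries of a guide, and their interaction over 8. The SE is the log2 change over the square root of F, and intervals are at 95%. Copies were compared with limma 3.58.1 on log2((A + 0.5)/(B + 0.5)) of counts over all A and B symbol pairs with a mean of at least 50 counts. Alternatives were DESeq2 1.42.0, limma-voom, other scalings, filters and pseudocounts, summed pairs, blocks, and leaving out each library. The tests were first run on simulated data with known changes. Those counts were drawn independently for each gene and library, so neither shared lysates nor reads that match both copies were simulated. Replicate pairs differed by more than counting error (chi-square per degree of freedom 3.16 to 10.6 outside transposon rows).

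The members and lists (small subunit head, body and platform, decoding accuracy proteins, regulators, late assembly factors, chaperones and large subunit proteins) were written from textbook knowledge with earlier results of these data known. Values per library are given for the 5 members of lowest p in each change, the 4 highest and 4 lowest by RNA level and by control ratio, the single-gene members, and the pairs with the 4 most and 3 least unequal RNA levels or the 3 smallest p of a balance test. Others are named for their role. Values of 7 members are not reported here one by one, in the text or the figures, and they remain in the counts and medians. RNA was taken from an aliquot of the lysate per the labels' protocols, so RNA and footprint libraries of the same number were taken as 1 lysate. Their deviations from the group mean correlated with r of 0.304 (control) and 0.391 (targeted). The printed ratios pair these libraries. The main tests that set footprints against RNA, those of the pairs included, had no term for the lysate, and the block alternative added it. A number shared between guides marks no pairing in the labels.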

Additional observations from a re-analysis of the deposited data

How the results depend on the processing

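Calls of single members between the guides were 0 in RNA and 0 in the ratio under every alternative run, and 0 in footprints except without RIBO_targeted replicate 1, which gave 2, where 159 genes (2.9%) were called in all. Median changes with a library left out ranged from -0.14 to 0.01 in RNA, from -0.09 to 0.05 in footprints and from 0.04 to 0.08 in the ratio. Without RIBO_targeted replicate 2 the footprint changes of RPS28A, RPS24A and RPS29A turned from negative to 0.0084, 0.0098 and 0.0518, and without replicate 1 they were -0.20, -0.16 and -0.22, that of RPS29A called lower. Scaled by library size only, the RNA median was -0.14 beside -0.07 over all genes. In control cells 57 of 57 members were called higher in footprints than in RNA under every alternative with 57 rows, and 33 of 33 proteins with copies summed, in targeted cells likewise. The control median of 1.03 became 1.05 with DESeq2, 2.005 with library size only, 0.905 with at least 10 CPM in 2 libraries, 1.02 without transposon genes and 1.0003 with copies summed, and 1.01 to 1.04 with a library left out. The targeted median became 2.10 with library size only, where that of all genes was 1.02.

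The change of the RPS9 balance in RNA was called with a mean of at least 500 counts (0.14, adjusted p 0.0108), in ribosomal protein pairs only (0.14, 0.00943, an alternative chosen after seeing the data), without RNA_targeted replicate 1 (0.17, 2.77e-05) and without RNA_targeted replicate 2 (0.11, 0.0467), each time as the 1 pair of 24 called, with 1 more pair outside the members called except in ribosomal protein pairs only. It was not called without either control library, with a pseudocount of 5 or with a block. The 12 pairs with a ratio difference were 7 to 14 with a library left out, the lowest without RNA_control replicate 2. The replicate block, the lysate, gave 17 such pairs, 57 of 57 members higher in control and in targeted cells, and 0 members called for the ratio change, for which it called 6 genes in all in place of 0. Between guides numbers pair nothing in the labels, and deviations correlated with r of -0.118 in RNA and -0.0583 in footprints. The replicate block gave 0 member calls in each (RNA median -0.07) and 60 footprint calls over all genes in place of 32. With it the RNA balance had 4 calls over all pairs in place of 0, none in the members. Crossed numbers in RNA, chosen after seeing the data, gave 0 member calls as well, and 71 calls over all genes in place of 21. The cause of these shifts was not tested. With 2 libraries per group no outlier could be tested.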
